A study of Mus musculus with 8 samples.

Results

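The 10 genes described here encode contractile and metabolic proteins of fast skeletal muscle fibres, and they are followed through RNA-seq libraries labelled as articular cartilage. They are Acta1, Ckm, Myh1, Myh4, Tnnt3, Tnni2, Mylpf, Myl1, Atp2a1 and Pvalb, 10 of 52636 genes in the deposited tables, and each was found by its mouse Ensembl identifier. The genes were chosen by name and on their measured TPM and expected counts in these same 8 libraries, as genes that show how much muscle RNA a library carries. Their levels are therefore given as a description, and no test over them stands as evidence.

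The libraries came from C57BL/6 male mice, labelled 10 weeks old, that were either WT or Oscar-/-, the latter lacking the osteoclast-associated receptor. Each genotype was sampled 2 or 4 weeks after sham surgery or after destabilization of the medial meniscus (DMM), which induces osteoarthritis of the knee. Per the methods of the study, each of the 8 conditions was a pool of 10 murine articular cartilages read as 1 library, which leaves no spread between animals to be measured. Intervals below cover counting error only. Since the protocol places surgery at that age or later, the labelled age cannot be the age at sampling for either week. The source given for every library is the knee joint, and the tissue is articular cartilage.

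Skeletal muscle fibres contract when thick filaments of myosin pull on thin filaments of actin. The troponin complex on the thin filament sets the reply to calcium, which the sarcoplasmic reticulum releases and takes back up, and creatine kinase restores the ATP that is spent. Fast and slow fibres use different copies of nearly all of these proteins, so that RNA of the fast copies marks fast fibres, of which the muscles around the knee hold many. Articular cartilage itself holds chondrocytes and no muscle fibres.

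Across the 8 libraries, expected counts summed to between 13189181 and 18533609. Oscar held 48, 118, 42 and 94 expected counts in WT sham and DMM at 2 weeks and WT sham and DMM at 4 weeks, and it was at 0 in all 4 Oscar-/- libraries, where a count of 0 allows up to 3 reads. All 11 chondrocyte genes on the list were detected, with a summed level of 987 to 2808 TPM, including Chad at 315 to 1304 TPM and Col2a1 at 59.5 to 209 TPM. Other tissues were also present, since 4 hemoglobin genes took 26.5% to 37.7% of TPM and osteoblast genes summed to 1574 to 3303 TPM.

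To show the regions from which these genes are transcribed, RefSeq windows of 300 bases on GRCm38.p6, from 250 bases before to 50 bases after the start, were matched by symbol to 8 of the 10 genes in 9 windows, Pvalb having a pair of starts. Tnnt3 and Tnni2 were not matched. Acta1 is shown as the actin of the thin filament, Ckm because the other genes are read against it below, Myh4 because its share of the heavy chain reads differed between libraries, and Mylpf because it changed least. The windows are chr8:123894726-123895025 on the minus strand, and chr7:19410844-19411143, chr11:67237562-67237861 and chr7:127211358-127211657 on the plus strand. Capitals mark the E-box CANNTG, the MEF2 box, the CArG box and the TATA box TATAAA, each searched on both strands, where TATAAA can overlap a MEF2 box.
Acta1: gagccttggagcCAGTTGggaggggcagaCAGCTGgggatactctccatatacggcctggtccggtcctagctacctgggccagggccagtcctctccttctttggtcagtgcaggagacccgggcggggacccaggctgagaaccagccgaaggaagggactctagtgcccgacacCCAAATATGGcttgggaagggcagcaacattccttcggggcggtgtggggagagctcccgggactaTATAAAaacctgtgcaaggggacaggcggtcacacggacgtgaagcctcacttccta
Ckm: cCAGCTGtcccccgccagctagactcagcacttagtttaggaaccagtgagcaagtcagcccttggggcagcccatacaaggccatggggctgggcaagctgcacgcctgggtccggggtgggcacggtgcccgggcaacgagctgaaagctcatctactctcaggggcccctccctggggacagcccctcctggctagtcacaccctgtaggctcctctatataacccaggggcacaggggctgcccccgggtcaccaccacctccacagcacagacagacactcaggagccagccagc
Myh4: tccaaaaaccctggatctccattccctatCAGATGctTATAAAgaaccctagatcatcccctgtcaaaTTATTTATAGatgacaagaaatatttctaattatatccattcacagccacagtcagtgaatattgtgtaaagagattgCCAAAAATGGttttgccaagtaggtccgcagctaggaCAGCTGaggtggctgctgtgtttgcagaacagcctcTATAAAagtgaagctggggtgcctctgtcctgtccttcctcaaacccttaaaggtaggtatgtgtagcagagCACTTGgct
Mylpf: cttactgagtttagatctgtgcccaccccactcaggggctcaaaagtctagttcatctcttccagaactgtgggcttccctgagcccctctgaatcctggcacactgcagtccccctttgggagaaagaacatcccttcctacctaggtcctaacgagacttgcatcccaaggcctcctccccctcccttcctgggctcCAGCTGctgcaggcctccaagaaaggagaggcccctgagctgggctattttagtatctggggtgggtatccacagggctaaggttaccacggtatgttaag
The E-box CANNTG, the sequence that myogenic factors such as MyoD are known to bind, stood in the windows of 7 of the 8 genes. It was held by 72.3% of the 32851 RefSeq mouse windows of this length that were searched, a single chromosome having been left out. A MEF2 box was found for 3 genes (Myh1, Myh4 and Pvalb) and in 3.19% of the windows searched. A CArG box, the letters bound by serum response factor, was found for Acta1 and Myh4 and in 1.63% of the windows searched. TATAAA was found for Acta1, Myh1, Myh4 and Myl1 and in 13.6% of the windows searched. These matches are letters in a window and were not tested as sites.

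All 10 genes were detected in all 8 libraries, and WT sham at 2 weeks carried the most of them. TPM, a transcript abundance that sums to the same total in every library, is corrected for gene length and was used for every level below. The summed level of the 10 genes was 286 TPM in WT sham, 69.2 TPM in WT DMM, 74.5 TPM in Oscar-/- sham and 70.0 TPM in Oscar-/- DMM at 2 weeks. At 4 weeks it was 138 TPM in WT sham, 154 TPM in WT DMM, 179.7 TPM in Oscar-/- sham and 99.8 TPM in Oscar-/- DMM. The highest library thus held 4.14 times the level of the lowest. In bulk tissue, fewer fibres and less RNA per fibre cannot be told apart.

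As shares of all expected counts, the 10 genes took 0.0327% in WT sham at 2 weeks (Wilson 95% interval 0.0319% to 0.0335%, from 6060 counts). The lowest share was 0.00652% in WT DMM at 2 weeks (0.00616% to 0.00691%, from 1178 counts). In order of their shares, WT DMM, Oscar-/- DMM and Oscar-/- sham at 2 weeks came first, and the intervals of these 3 libraries overlapped. The next were Oscar-/- DMM at 4 weeks with 0.00946%, WT sham at 4 weeks with 0.0134%, WT DMM at 4 weeks with 0.0147% and Oscar-/- sham at 4 weeks with 0.0163%, whose intervals did not overlap. The samples therefore did not order by surgery, genotype or week: the high library was a sham of WT at 2 weeks, while the other sham at that week was among the low ones.

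**Figure D1:**
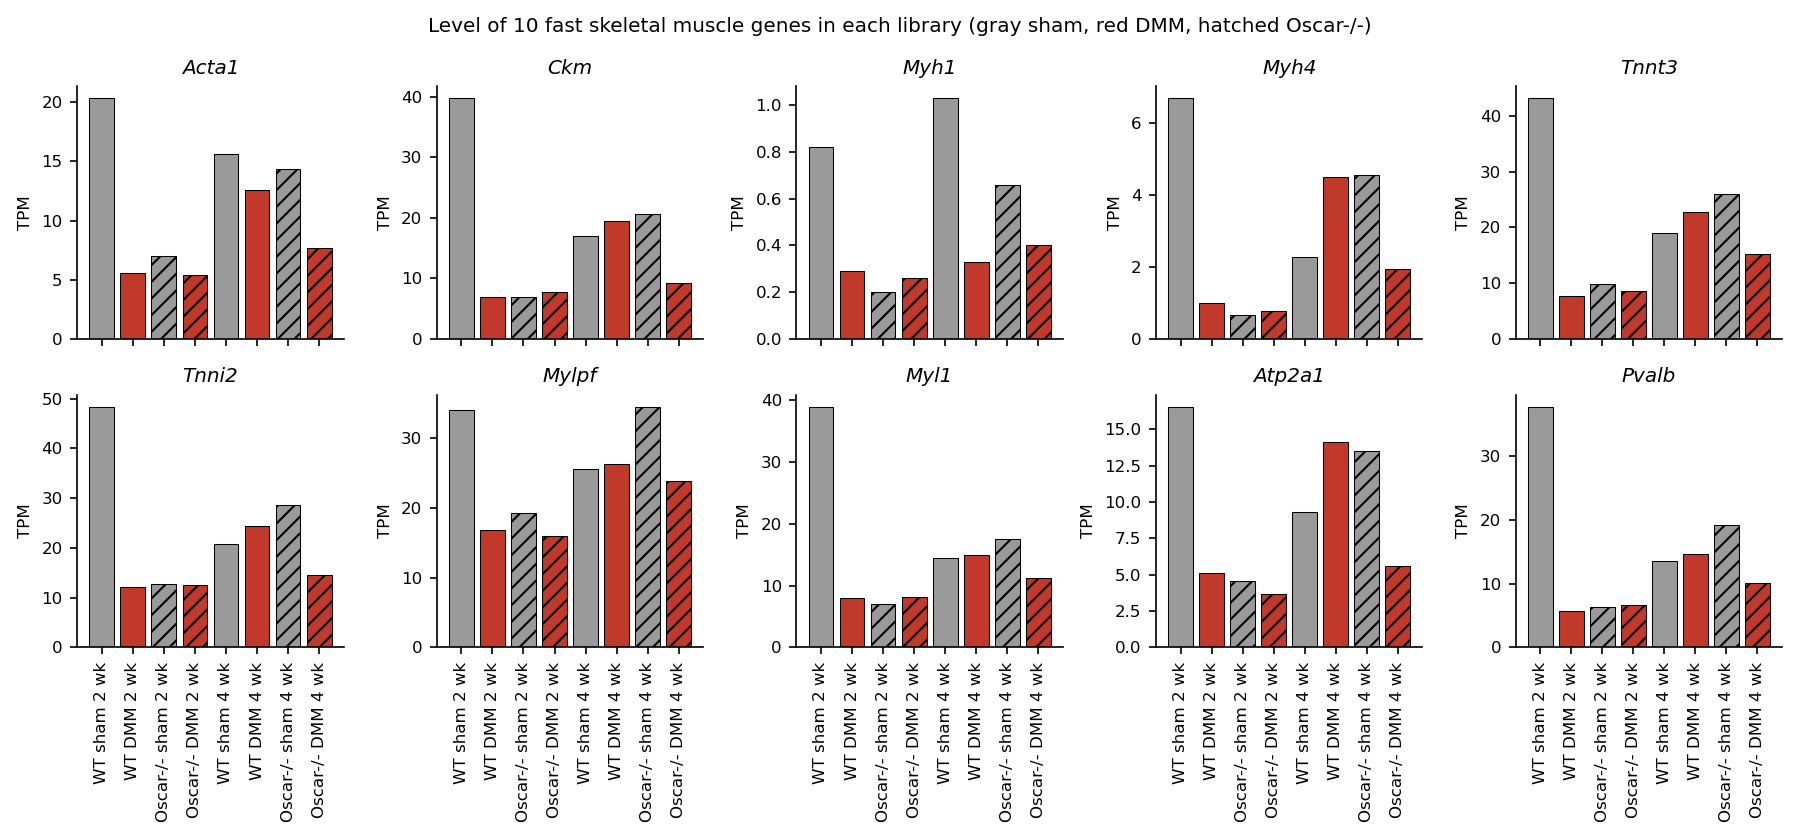
Level of each of the 10 fast skeletal muscle genes in TPM (y axis, from 0) in the 8 libraries (x axis). Gray bars are sham, red bars DMM and hatched bars Oscar-/-, with 1 library per bar. WT sham at 2 weeks is the highest bar for 8 of the 10 genes, the others being Myh1 and Mylpf, which were highest there in TMM-scaled CPM.

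The myosin heavy chains are the motor of the thick filament, and Myh4 and Myh1 encode the IIb and IIx forms of the fastest fibres. The 4 values of a week run from sham to DMM in WT and then from sham to DMM in Oscar-/-. Myh4 stood at 6.69, 0.98, 0.67 and 0.77 TPM at 2 weeks, followed by 2.26, 4.49, 4.54 and 1.94 TPM at 4 weeks. Myh1 stood at 0.82, 0.29, 0.2 and 0.26 TPM at 2 weeks, followed by 1.03, 0.33, 0.66 and 0.4 TPM at 4 weeks. Myh4 was high in the WT sham library at 2 weeks and low in the other 3 libraries of that week, whereas Myh1 was highest in WT sham at 4 weeks. Myh1 exceeded 1 TPM in that library alone, and it passed the filter on low values only through it, so the other 9 genes are the more precise. Its highest library also depended on the unit. In expected counts scaled for library size but not corrected for gene length (TMM-scaled CPM), Myh1 was highest in WT sham at 2 weeks. It stood at 7.18 there and at 6.05 in WT sham at 4 weeks.

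The myosin light chains sit on the neck of the motor, Mylpf encoding the regulatory chain of fast fibres and Myl1 the essential chain. Myl1 stood at 38.9, 8.00, 6.95 and 8.21 TPM at 2 weeks, followed by 14.5, 14.9, 17.6 and 11.2 TPM at 4 weeks. Mylpf stood at 34.0, 16.9, 19.3 and 16.0 TPM at 2 weeks, followed by 25.5, 26.3, 34.5 and 23.9 TPM at 4 weeks. Myl1 followed the pattern of the sum, with a single high library. Mylpf varied least of the 10 genes, and in TPM its WT sham value at 2 weeks lay next to that of Oscar-/- sham at 4 weeks. This closeness depended on the unit. In TMM-scaled CPM, Mylpf was highest in WT sham at 2 weeks, at 26.4 against 12.7 in Oscar-/- sham at 4 weeks.

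On the thin filament, Acta1 encodes the actin of adult skeletal muscle, Tnnt3 the fast troponin T that fixes the complex to tropomyosin, and Tnni2 the fast troponin I that holds contraction off at rest. Acta1 stood at 20.4, 5.57, 7.04 and 5.41 TPM at 2 weeks, followed by 15.6, 12.6, 14.3 and 7.67 TPM at 4 weeks. Tnnt3 stood at 43.2, 7.65, 9.83 and 8.60 TPM at 2 weeks, followed by 18.95, 22.8, 26.1 and 15.25 TPM at 4 weeks. Tnni2 stood at 48.3, 12.1, 12.7 and 12.6 TPM at 2 weeks, followed by 20.7, 24.3, 28.6 and 14.5 TPM at 4 weeks. For all 3 genes the WT sham library at 2 weeks was the highest and Oscar-/- DMM was the lowest of the libraries at 4 weeks. Tnni2 and Tnnt3 lie near each other on GRCm38, at chr7:142441808-142444410 and chr7:142498836-142516009.

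Calcium handling and energy supply were represented by Atp2a1, the fast-fibre calcium pump SERCA1, Pvalb, the calcium buffer parvalbumin, and Ckm, the muscle creatine kinase. Atp2a1 stood at 16.6, 5.11, 4.59 and 3.67 TPM at 2 weeks, followed by 9.34, 14.2, 13.5 and 5.61 TPM at 4 weeks. Pvalb stood at 37.8, 5.79, 6.27 and 6.69 TPM at 2 weeks, followed by 13.5, 14.6, 19.3 and 10.15 TPM at 4 weeks. Ckm stood at 39.8, 6.87, 6.97 and 7.75 TPM at 2 weeks, followed by 16.98, 19.4, 20.7 and 9.25 TPM at 4 weeks. The WT sham library at 2 weeks was again highest for each gene, and among the libraries at 4 weeks the Oscar-/- DMM library was the lowest.

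The study compared DMM with sham in each genotype and week by the log2 ratio of TPM, and this ratio was taken for each gene with a standard error from its counts alone. At 2 weeks in WT, all 10 genes were lower after DMM, with a median log2 ratio of -2.14, while the median of 12513 expressed genes was 0.35. Myh4 had the lowest ratio at -2.77 (counting SE 0.14) and Mylpf the highest at -1.01 (counting SE 0.13). In Oscar-/- at 2 weeks, 5 genes were above 0 and 5 below, and the median was 0.04 beside -0.03 for all genes. There the ratios ran from -0.38 in Acta1 (counting SE 0.18) to 0.38 in Myh1 (counting SE 0.45). None of the 10 genes differed 2-fold, though the counting error of Myh1 was wide.

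At 4 weeks the genotypes changed places. In WT, 8 genes were above 0, and the median log2 ratio was 0.15 beside 0.05 for all genes. Myh4 was higher after DMM at 0.99 (counting SE 0.13), whereas Myh1 was lower at -1.64 (counting SE 0.32). In Oscar-/-, all 10 genes were below 0, with a median of -0.91 beside -0.15 for all genes. These ratios ran from -1.27 in Atp2a1 (counting SE 0.16) to -0.53 in Mylpf (counting SE 0.15). These medians depended on the sham library: against that of the other week they were -1.22 in WT and -1.41 in Oscar-/- for DMM at 2 weeks, and -0.96 in WT and 0.52 in Oscar-/- for DMM at 4 weeks. Relative to the median of all genes, the members lay at -2.49 and 0.07 in WT and Oscar-/- at 2 weeks and at 0.10 and -0.76 at 4 weeks.

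**Figure D2:**
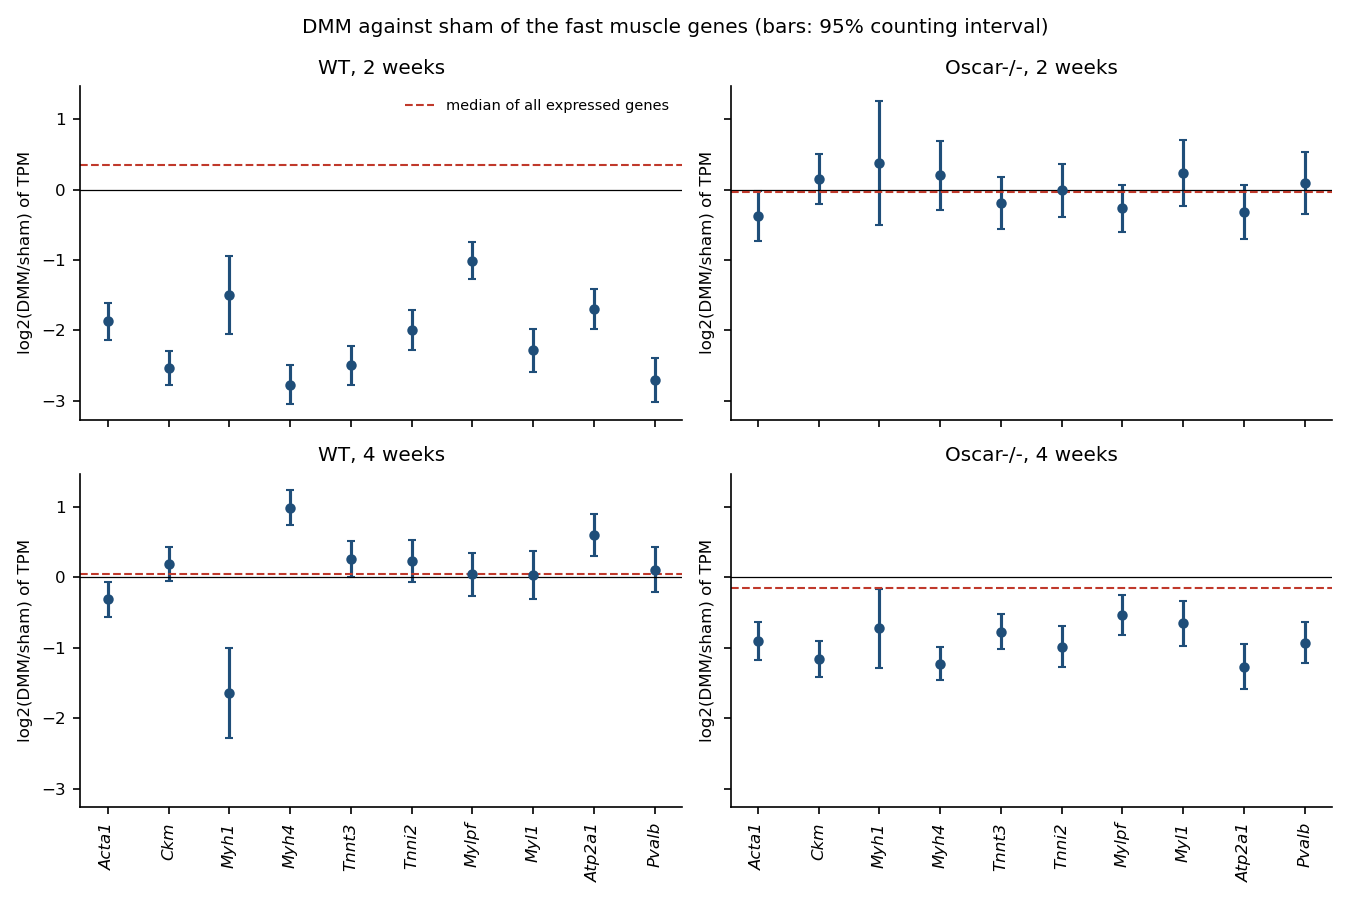
Log2 ratio of TPM in DMM against sham (y axis) for each of the 10 genes (x axis), 1 panel for each genotype and week. Points are single pairs of libraries, bars are 95% counting intervals, and the dashed line is the median of all expressed genes. All 10 points lie under 0 in WT at 2 weeks and in Oscar-/- at 4 weeks.

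A 2-fold lower TPM after DMM was reached by 10 of the 10 genes in WT at 2 weeks, beside 0.719% of all expressed genes. It was reached by 0 of 10 in Oscar-/- at 2 weeks, beside 2.57% of all genes. At 4 weeks it was reached by 1 of 10 in WT, Myh1, beside 0.439%, and by 3 of 10 in Oscar-/-, Ckm, Myh4 and Atp2a1, beside 1.55%. Since the members were chosen with these levels known, the counts are descriptions. None of the 10 genes was 2-fold higher in any pair.

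The study then took genes as attenuated by Oscar deficiency when the log2 ratio of DMM to sham was above 0 in WT, below 0 in Oscar-/-, and their difference fell in the lower quartile, at both weeks. By these criteria 0 of 10 members were attenuated, beside 10.1% of 12538 expressed protein-coding genes. The difference of the ratios, Oscar-/- minus WT, had a median of 2.15 over the members at 2 weeks, beside -0.41 over all genes, and all 10 members were above 0 while 82.6% of all genes were below it. At 4 weeks its median was -1.04 over the members, beside -0.22 over all genes, and 9 of 10 were below 0. Myh1 was the exception at 0.92 (counting SE 0.43). Each difference rests on 4 libraries, and at 2 weeks 1 of them is the WT sham library with the highest level of the members.

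A fit over all 8 libraries, with week, surgery and genotype as additive terms in the quasi-likelihood test of edgeR, adjusted over 12538 genes, called 0 of 10 members for surgery, beside 0% of all genes. At an unadjusted p under 0.05 there were 6, and DESeq2 and limma also called 0, beside 0.582% and 0.167% of all genes. The median log2 fold change of DMM against sham over the members was -1.02, and Acta1 had the smallest p with a log2 fold change of -0.99 (SE 0.29, adjusted p = 0.418). For genotype 0 of 10 were called, beside 0.0479% of all genes, with 0 at an unadjusted p under 0.05. For week 0 of 10 were called, beside 7.94% of all genes, again with 0 at an unadjusted p under 0.05. For the interaction of genotype with surgery 0 of 10 were called, beside 5.24% of all genes, with 2 at an unadjusted p under 0.05, Myh1 and Mylpf. DESeq2 and limma called 0 members in these 3 comparisons too. Of all genes, DESeq2 called 0.0798%, 8.14% and 3.64% in them, and limma 0.0479%, 21.5% and 2.79%.

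Single libraries set these counts. Without WT sham at 2 weeks, 6 members (Pvalb, Ckm, Acta1, Myh4, Tnnt3 and Myl1) were called higher at 4 weeks than at 2 weeks, beside 5.89% of all genes, and the median log2 fold change for surgery moved from -1.02 to -0.26. Myh4 was then also called in the interaction, with a log2 fold change of -1.59, beside 4.13% of all genes. Without WT sham at 4 weeks, 9 members were called in the interaction, all in the positive direction, beside 15.8% of all genes, and Atp2a1 was the member not called. The sign of the interaction thus turned on which WT sham library stood for the controls, the member median being 2.05 without the library at 4 weeks and -0.41 without that at 2 weeks.

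The make-up of the muscle RNA was compared with Ckm as the reference, since ratios within a library do not depend on its depth or scaling. Pvalb held 0.751 to 1.10 times the TPM of Ckm, Tnni2 1.21 to 1.83 times and Tnnt3 1.09 to 1.65 times, so these genes kept close to Ckm while their levels changed several-fold. Mylpf held 0.855 times the TPM of Ckm in WT sham at 2 weeks and 2.76 times in Oscar-/- sham at 2 weeks. Its ratio was lowest in the library with the most muscle RNA and above 2 in the 4 with the least. Acta1 likewise held 0.512 times the TPM of Ckm in WT sham at 2 weeks and 1.01 times in Oscar-/- sham at 2 weeks.

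The heavy chains of adult fibres gave a second measure of make-up. Beside Myh4 and Myh1, Myh2 encodes the chain of the more oxidative IIa fibres and Myh7 that of slow fibres, and these were singled out after their values were seen. Myh4 made up 87.5% of the reads of these 4 genes in WT sham at 2 weeks (Wilson 95% interval 85.4% to 89.4%, of 1036 counts). It made up 59.8% in WT sham at 4 weeks (54.4% to 65.0%, of 326 counts) and 93.1% in WT DMM at 4 weeks (90.1% to 95.2%, of 376 counts). In the other 5 libraries the share lay between 67.6% and 85.9%. WT sham at 4 weeks was also the library with the most Myh2, at 30.4 expected counts, and held 11 Myh7 counts, whereas Myh7 was at 0 in 5 libraries and at 1 and 2 counts in the other two. The pair of WT libraries at 4 weeks therefore had nearly the same summed level of members but a different mix of heavy chains.

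The heavy chain genes are close copies. Of 50-base windows, 21.7% of those of Myh1 transcripts, 19.0% of Myh2 and 13.3% of Myh4 also occur in another of Myh1, Myh2 and Myh4. Reads that lie wholly in shared sequence were divided between the copies by RSEM, so the split between them is uncertain. The reads were paired and longer than 50 bases per the methods of the study, so these shares do not measure that uncertainty.

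**Figure D3:**
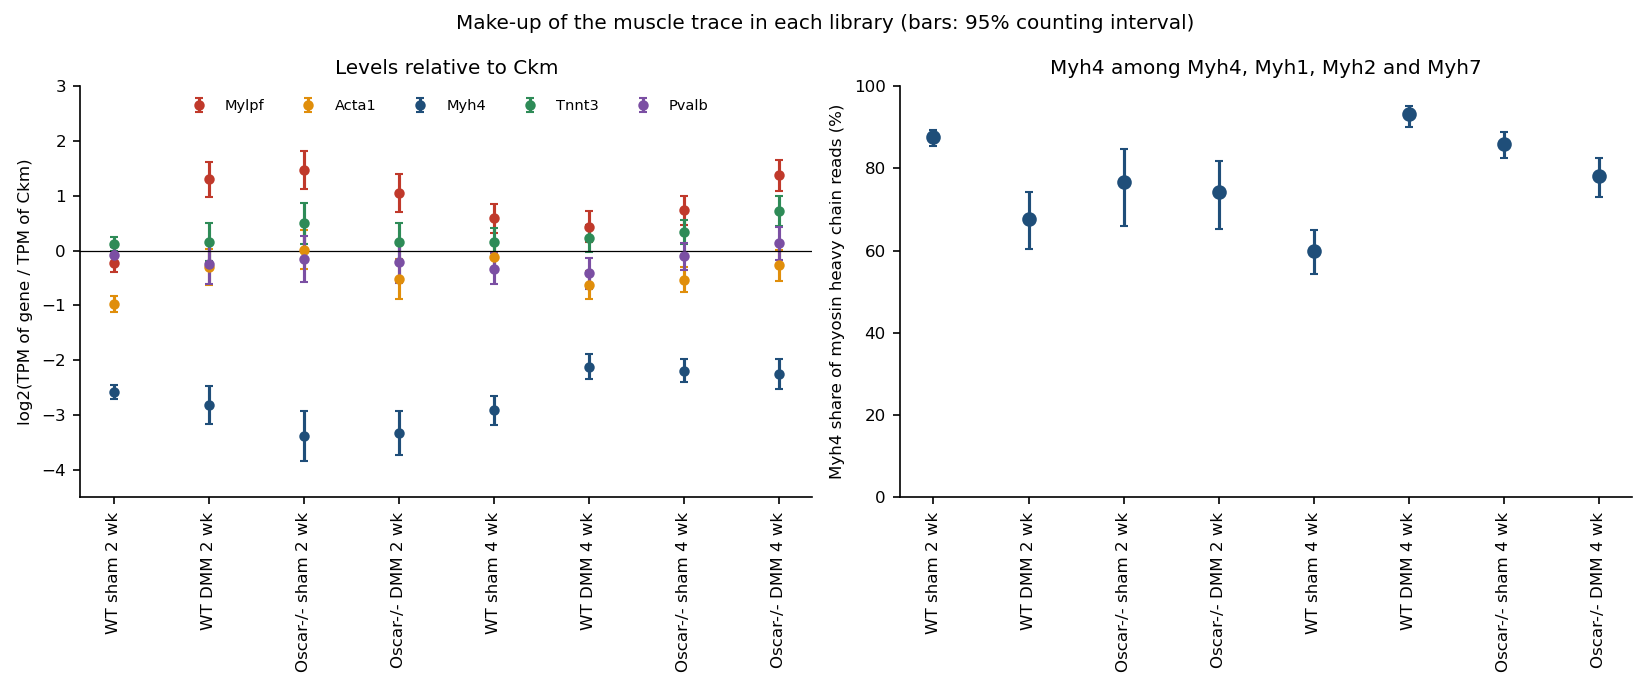
Left, log2 ratio of the TPM of 5 genes to that of Ckm in each library (y axis); right, the share in percent of Myh4 among the reads of Myh4, Myh1, Myh2 and Myh7 (y axis from 0 to 100). Points are single libraries and bars are 95% counting intervals. Mylpf is lowest against Ckm in WT sham at 2 weeks, and the Myh4 share is 59.8% in WT sham at 4 weeks and 93.1% in WT DMM at 4 weeks.

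Genes with the most similar pattern were taken as those with the smallest root mean square difference, in log2 units over the 8 libraries, from the centred median profile of the members. Of 11890 other genes with a mean of at least 1 TPM, the nearest was Tnnc2, fast troponin C, at 0.135, with 40.9 TPM in WT sham at 2 weeks and 6.56 TPM in WT DMM at 2 weeks. Then came Actn3 at 0.273, Casq1 at 0.366, Sh3bgr at 0.368, Tcap at 0.395, Myoz1 at 0.406, Des at 0.422, Cox7a1 at 0.424, Pgam2 at 0.431 and Trdn at 0.451. Among them Actn3 is an actinin of the fast-fibre Z-disc, Casq1 the calcium store of the sarcoplasmic reticulum, Tcap the cap of titin, and Des the muscle intermediate filament. The list of other muscle genes held 9 of these 10, and 31 genes of it were among those compared. The members themselves ranged from 0.113 in Tnnt3 to 0.50 in Myh4, with Mylpf at 0.432, and Myh1, whose mean was under 1 TPM, was not compared.

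Beyond the members, 92 other muscle genes were listed by role, of which 40 passed the filter on low values. The other fast-fibre genes summed to 85.3 TPM in WT sham at 2 weeks and to 26.7 to 53.5 TPM in the other 7 libraries, as in the members. Eno3, the muscle enolase, varied less than Tnnc2, between 6.95 and 13.2 TPM. The slow-fibre genes summed to 12.6 to 21.8 TPM, with Tnnt1 as the largest part, and this sum did not single out WT sham at 2 weeks. Of its genes, Mybpc1 at 1.92 TPM and Myl3 at 0.68 TPM were highest in that library. Tnnt1, slow troponin T, lay between 6.42 and 13.1 TPM and Myl2, the slow regulatory light chain, between 2.05 and 4.41 TPM. Tnnc1, the troponin C of slow fibres, was at 2.52 TPM in WT sham at 4 weeks (21 counts) and at 0.63 to 1.09 TPM elsewhere (5 to 12 counts). This observation was made after its values were seen. Tnnt1 and Myh7 of the same list were also highest in that library, whereas Csrp3 was lowest there at 0.49 TPM. Myl2, Myl3, Tnni1, Mybpc1, Myoz2, Casq2 and Myh7b were not highest there.

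Genes of the junction between the surface membrane and the sarcoplasmic reticulum followed the members in part. Trdn, which anchors the calcium release channel, was at 6.70 TPM in WT sham at 2 weeks and at 0.34 to 1.59 TPM in the other 7 libraries, and Jsrp1 was at 2.05 TPM there and at 0.25 to 1.10 TPM elsewhere. Among Z-disc and sarcomere genes, Tpm1 and Tpm2 encode tropomyosins that other cells also express. Tpm1 was nearly flat at 139 to 193 TPM, and Tpm2 lay at 9.85 to 11.5 TPM at 2 weeks and at 20.2 to 26.6 TPM at 4 weeks. Of the genes of energy supply, Adssl1, a purine cycle enzyme, lay at 29.1 to 41.7 TPM and Pfkm, phosphofructokinase, at 12.6 to 15.9 TPM, without the high value in WT sham at 2 weeks. Fabp3 and Slc2a4 also lacked it. Mb, Cox7a1, Cox8b and Ckmt2 were highest in that library, at 9.19, 8.00, 8.01 and 1.08 TPM. Cox6a2 was highest there by little, at 6.70 TPM against 6.69 TPM in Oscar-/- sham at 4 weeks.

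Genes of immature or regenerating fibres were at or near 0. The embryonic and neonatal heavy chains Myh3 and Myh8, the fetal receptor subunit Chrng and the progenitor factor Pax3 had no counts in any library. The myogenic factors Pax7, Myf5, Myod1 and Myog did not exceed 0.12 TPM. Myf6, another of them, was highest in WT sham at 2 weeks, at 0.16 TPM from 4 counts. Ncam1 lay at 2.98 to 4.03 TPM and Cdh15 at 1.62 to 2.58 TPM, both without a high value in WT sham at 2 weeks. Mef2c, a factor of muscle and also of cartilage and bone, lay at 7.40 to 14.3 TPM and was lowest in WT sham at 2 weeks. Chrnb1, a receptor subunit of the neuromuscular junction, lay at 0.56 to 1.44 TPM and was lowest in WT sham at 2 weeks.

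In the edgeR fits, 0 of these 40 genes were called for surgery, beside 0% of all genes, with 9 at an unadjusted p under 0.05. DESeq2 called 1, Tcap, and limma called 1, Cox7a1, both lower after DMM, beside 0.582% and 0.167% of all genes. For genotype 0 of 40 were called, beside 0.0479% of all genes, with 1 at an unadjusted p under 0.05. DESeq2 and limma called 0 for genotype, beside 0.0798% and 0.0479% of all genes. For week 2 of 40 were called, beside 7.94% of all genes, both higher at 4 weeks, Myom1 with a log2 fold change of 1.18 (SE 0.15, adjusted p = 0.00263) and Tpm2 with one of 0.65 (SE 0.12, adjusted p = 0.0124). Myom1, an M-band protein, had 0.98 to 1.19 TPM at 2 weeks and 2.32 to 3.57 TPM at 4 weeks, and its libraries at the 2 times did not overlap. The names of the deposited libraries carry lane-like marks that differ between the weeks and, at 4 weeks, between the genotypes, so any effect of these marks and of week cannot be told apart.

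The interaction called 2 of the 40, beside the same 5.24% of all genes. Mb, the oxygen carrier myoglobin, had a log2 fold change of 1.82 (SE 0.41, adjusted p = 0.0316, from 0.00923 to 0.161 over the alternatives). Mb stood at 9.19, 2.90, 3.52 and 2.68 TPM at 2 weeks, followed by 7.49, 2.02, 3.85 and 3.60 TPM at 4 weeks, so both WT sham libraries were high and the other 6 low. Lrp4, a receptor of the neuromuscular junction that bone cells also express, had a log2 fold change of -0.71 (SE 0.15, adjusted p = 0.0269, from 0.0176 to 0.143 over the alternatives). It stood at 2.22, 3.13, 3.64 and 2.21 TPM at 2 weeks, followed by 3.20, 4.09, 4.27 and 2.94 TPM at 4 weeks, higher after DMM in WT and lower in Oscar-/-. By the criteria of the study 5 of the 40 were attenuated, among them Chrnb1, Lrp4, Cdh15 and Mef2c, beside 10.1% of all genes, a share of similar size.

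Markers of other tissues shared the order of the members in part. The chondrocyte sum was highest in Oscar-/- sham at 2 weeks, at 2808 TPM, against 1732 TPM in WT sham at 2 weeks. This sum was lower after DMM in the same pairs in which all 10 members were lower in TPM. It was 1141 TPM against 1732 TPM in WT at 2 weeks. In Oscar-/- at 4 weeks it was 987 TPM against 1714 TPM. It was also lower in Oscar-/- at 2 weeks, at 1150.0 TPM. Chad, Prg4 and Comp were the largest parts of the sum, and not all chondrocyte genes fell with it. For the WT pair at 2 weeks, Col11a1 rose from 12.19 to 25.45 TPM and Col9a1 from 2.53 to 4.78 TPM. Matn3 and Hapln1 also rose in that pair, while the other chondrocyte genes on the list fell. The erythroid sum was highest in WT sham at 2 weeks, as for the members, at 378506 TPM, and next in Oscar-/- DMM at 4 weeks, at 371877 TPM, and over all libraries it ranged 1.42-fold. Adipocyte genes summed to 290.2 TPM in WT sham at 2 weeks and to 251 to 495 TPM over all libraries. Smooth muscle genes, led by Tagln and Smtn, were lowest in WT sham at 2 weeks at 15.7 TPM and highest in WT DMM at 4 weeks at 49.6 TPM. Of the cardiac genes, Myl7 had no counts, while Myl4 lay at 12.0 to 33.0 TPM. The part of any of these tissues in the levels of the members was not tested.

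**Figure D4:**
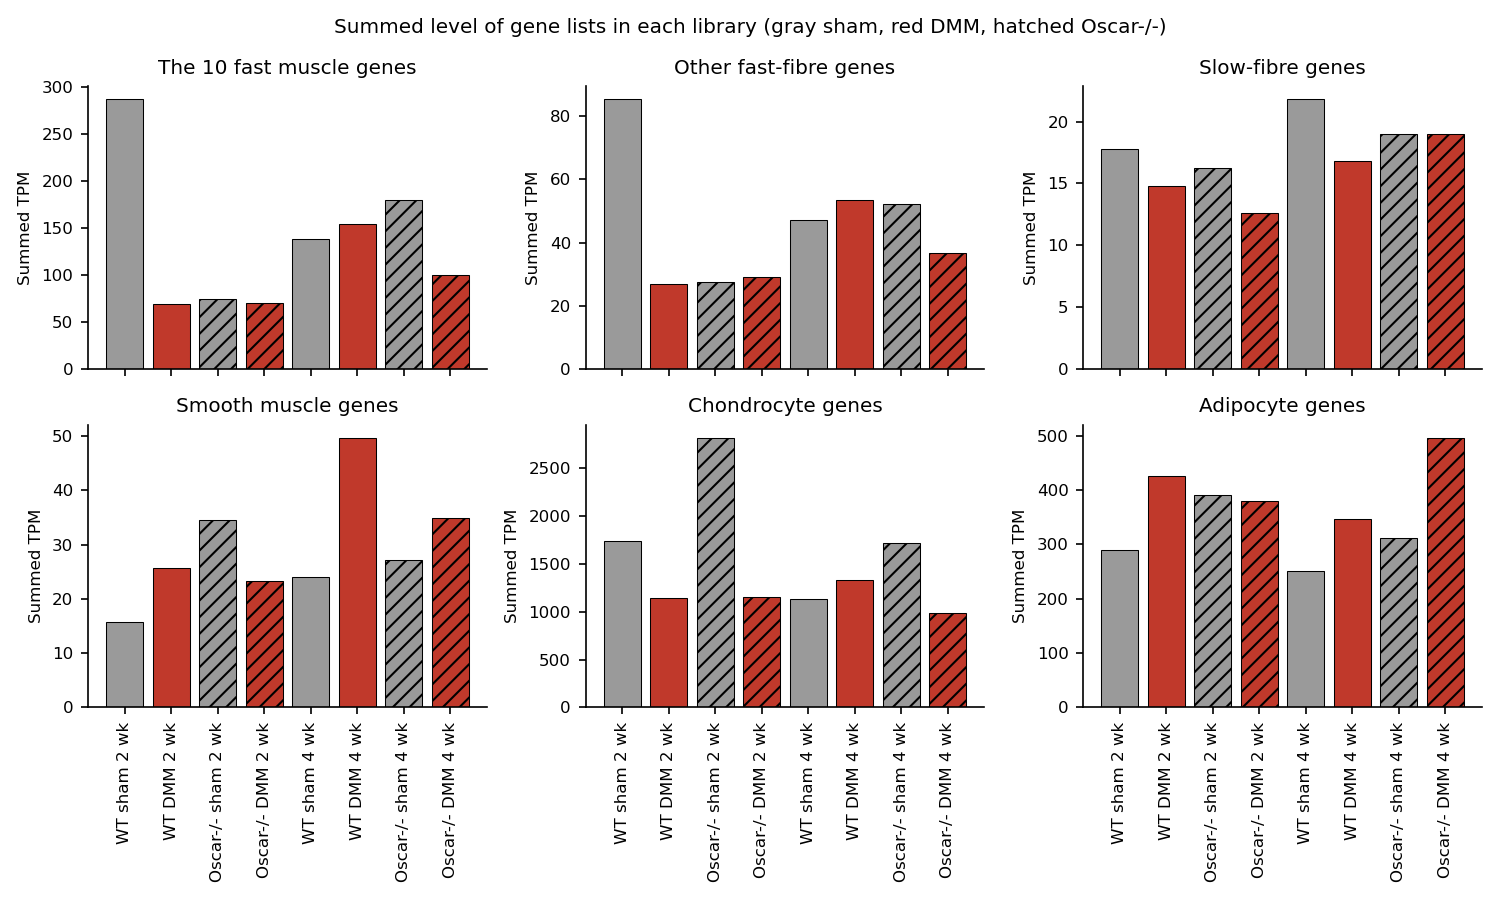
Summed TPM (y axis, from 0) of 6 gene lists in the 8 libraries (x axis), with gray for sham, red for DMM and hatching for Oscar-/-. The 10 members and the other fast-fibre genes are highest in WT sham at 2 weeks, at 286 and 85.3 TPM, whereas smooth muscle genes are lowest there at 15.7 TPM.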

How the data were processed

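Total RNA of knee articular cartilage was sequenced by the authors from stranded mRNA libraries, and per the labels 1 library stands for each of 8 conditions. The submitters' processing notes list RSEM 1.2.17, STAR 2.6.0a and FastQC 0.11.8 beside a human build, while the identifiers are mouse. Of these, 52403 of 52636 matched GENCODE M21. The authors deposited an expected count and a TPM for each gene and library, the TPM being scaled within each library, so that hemoglobin transcripts lower all other values.

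Members, lists and contrasts were chosen with earlier results of these data known. Expected counts were rounded and tested with edgeR 4.0.16 in R 4.3.3 (quasi-likelihood, TMM, Benjamini-Hochberg, 0.05) over 12538 protein-coding genes with TPM above 1 in at least 1 library. With 1 library per condition, p-values measure only the spread that the fitted terms leave. The fitting was tested on simulated data. DESeq2 1.42.0, limma 3.58.1 on log2(TPM + 1), other scalings, no filter, all gene types and leaving out each library were tried. Named genes were all members, the 2 most abundant of each other list, those called for surgery or the interaction, and the 10 nearest in pattern; others, such as Myom1, Col2a1, the cardiac Myl7, the minor heavy chains and the genes of immature fibres, were chosen after their values were seen, and 1 gene that the rule names is not reported here. Depth was 13189181 to 18533609 counts. Antisense and overlapping genes were not examined.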

Additional observations from a re-analysis of the deposited data

Results flagged for a closer look

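The median response of the 10 fast muscle genes to DMM fell on opposite sides of 0 in groups under the same contrast, with 1 library for each value, and none of these differences was tested. The medians of 0.04 and 0.15 below lie close to 0 beside the counting error of single genes, and in Oscar-/- at 2 weeks 5 genes were above 0 and 5 below. At 2 weeks the median log2 ratio of DMM to sham was -2.14 in WT and 0.04 in Oscar-/-, a difference of 2.18. At 4 weeks it was 0.15 in WT and -0.91 in Oscar-/-, a difference of -1.06. Between the weeks it differed by 2.29 in WT and by -0.95 in Oscar-/-. The summed level of the genes was 286 TPM in WT sham at 2 weeks and 69.2 to 74.5 TPM in the other 3 libraries of that week. With the sham library of the other week, the medians in Oscar-/- at 2 weeks, in WT at 4 weeks and in Oscar-/- at 4 weeks turned sign, to -1.41, -0.96 and 0.52. Differences of these medians are not the medians of the differences given with the criteria of the study.

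In the edgeR test of the interaction, Mb differed between the genotypes in its response to DMM by a log2 fold change of 1.82 and Lrp4 by -0.71. Of these, Mb was high in both WT sham libraries.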

How the results depend on the processing

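With 1 library per condition the data cannot separate a condition from its library, and Myh1, with 17.2 to 111 expected counts, was the least precise member. The cause of the changes below was not tested, and a fit without 1 library assumes that the lone library left in an arm varies like the others. Over the fits without 1 library, members called ranged from 0 to 6 for week and from 0 to 9 for the interaction, and other muscle genes called ranged from 1 to 3 for week and from 0 to 11 for the interaction. For both sets of genes, the highest counts came from leaving out WT sham at 2 weeks for week and WT sham at 4 weeks for the interaction. In these fits 5.89% of all genes were called for week and 15.8% for the interaction. Over all the fits without 1 library, the shares of all genes ran from 1.98% to 6.18% for week and from 0.12% to 15.8% for the interaction. Among the other muscle genes, DESeq2 and limma each called 1 for surgery, beside 0.582% and 0.167% of all genes. For week limma called 5 of the 40, beside 21.5% of all genes. DESeq2 called 0 for the interaction, where 28 had no adjusted p, beside 3.64% of all genes. The median log2 ratio in WT at 2 weeks was -2.58 with TMM-scaled CPM. With the sham library of the other week the 2-week medians were -1.22 (WT) and -1.41 (Oscar-/-) and the 4-week medians -0.96 (WT) and 0.52 (Oscar-/-), with the sign turned in all but WT at 2 weeks. The highest over the lowest summed share was 5.01 for expected counts and 4.601 for TPM without hemoglobin. With TMM-scaled CPM, 3 of the 40 other muscle genes were attenuated, beside 1026 of all 12538 genes.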
